A study of Mus musculus with 6 samples.

Results

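The ribosomal proteins of the cytosol are the protein parts of the ribosome that translates nuclear mRNAs. Their genes were taken from the expression table by symbol: Rpl or Rps followed by a digit, or Rpsa, Rplp0, Rplp1 or Rplp2, leaving out the S6 kinase genes and symbols ending in -ps. The rule found 87 of 15139 rows. Of these, 77 are core ribosomal protein genes, 46 of the large and 31 of the small subunit. A further 9 are paralogs or processed relatives (Rpl22l1, Rpl36al, Rps27l, Rpl7l1, Rpl3l, Rpl39l, Rps4l, Rpl32l and Rpl37rt), and Rps19bp1 encodes a binding protein that is not itself ribosomal.

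The libraries were made from mRNA of primary mouse bone marrow cells that were cultured and collected at week 1. The culture held 10 ng/ml interleukin 3 (IL3), 50 ng/ml stem cell factor (SCF) and 10% fetal bovine serum. The wild-type (WT) group is MxCre+v with Dnmt3a+/+ and has 3 libraries. The knockout (KO) group is MxCre+v with Dnmt3a-/- and has 2 libraries, replicates 2 and 3. KO replicate 1 was not analysed here. The labels of the whole KO group use both knockout and knockdown. Both genotypes carry MxCre, the Cre recombinase under the interferon-inducible Mx1 promoter. Levels are FPKM, which divide a gene's fragments by its length and by the mapped total of the library. Separate animals or cultures are not named for the replicates, so p-values here measure spread among libraries that may be technical in part.

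A ribosome holds nearly every core protein once, next to its ribosomal RNA, and the cell makes the parts in matched amounts. Most mRNAs of ribosomal proteins begin with a tract of pyrimidines, the 5′ terminal oligopyrimidine (TOP) motif, through which mTOR signalling controls their translation. In blood formation these genes are known from ribosomopathies such as Diamond-Blackfan anaemia, in which loss of 1 copy of Rps19 or of certain other members impairs red cell production. A few members have paralogs, of which Rpl22l1, Rpl39l and Rpl3l are the best known. Expression of Rpl39l and Rpl3l is tissue-restricted.

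The start sites of 6 members are shown first because the pyrimidine tract is the feature that marks the family. Each run is read on the coding strand and spans 20 bases before to 20 bases from the annotated start in GRCm38.p6 (RefSeq), with the longest run of C and T in capitals. Rps9 lies at chr7:3704021-3704060 (+), Rpl28 at chr7:4792945-4792984 (+), Rplp2 at chr7:141447631-141447670 (+), Rpl35 at chr2:39005112-39005151 (-), Rps6 at chr4:86857348-86857387 (-) and Rpl10 at chrX:74270796-74270835 (+).
Rps9: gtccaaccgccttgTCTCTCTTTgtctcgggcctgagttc
Rpl28: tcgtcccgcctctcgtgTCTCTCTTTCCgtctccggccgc
Rplp2: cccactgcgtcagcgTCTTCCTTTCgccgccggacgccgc
Rpl35: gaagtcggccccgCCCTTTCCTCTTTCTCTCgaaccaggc
Rps6: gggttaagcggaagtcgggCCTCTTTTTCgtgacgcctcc
Rpl10: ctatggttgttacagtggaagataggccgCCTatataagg
The first 5 hold runs of 9, 11, 10, 18 and 10 pyrimidines over or beside the start, and Rpl10 is shown as a member whose annotated start has none longer than 3. They were chosen after their sequences were seen. An entry was found for 66 of the 87 members, 57 of them core. A run of at least 8 pyrimidines was present in the window of 28 of these 57 (49.1%), against 4937 of 26968 other genes (18.3%). The letters CTTTC stood in the same window of 18 of the 57 (31.6%) and of 6.39% of other genes. The letters CGGAAG, the core of an ETS-factor motif, were found on either strand (as CGGAAG or CTTCCG) in the 300-base promoters of 40 of the 57 (70.2%) and of 18.7% of other genes. These are descriptions of the sequence, and no binding or methylation was measured.

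In the comparison of KO with WT, the family was almost without called changes. Of 86 members tested, 1 rose and none fell (limma on log2(FPKM + 1), adjusted p under 0.05 over all genes tested). Among all 11365 genes tested, 22.1% changed, 9.08% upward and 13.0% downward. Bulk RNA cannot tell fewer cells of a type from less RNA per cell, and FPKM give no absolute amount. The member that rose was Rps4l, a relative of Rps4x whose reference transcript has no annotated coding sequence, and none of the 77 core genes passed. At an unadjusted p under 0.05 there were 6 members, 2 of them core, against 34.7% of all tested genes. In the authors' deposited table, the adjusted p was under 0.05 for 1 member, again Rps4l, and for 8.10% of the tested genes. Rpl3l, the muscle paralog of Rpl3, was the member not tested, because only WT replicate 1 reached 1 FPKM (1.04, 0.420 and 0.720 FPKM in WT and 0.550 and 0.570 FPKM in KO).

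The median log2 change of the members was 0.08, beside -0.04 over all tested genes. The large subunit had a median of 0.09 and the small subunit 0.07. The interquartile range of the core genes was 0.02 to 0.16, and the whole core lay between -0.40 (Rpl10a) and 0.23 (Rpl39, Rpl21 and Rps6). For 75 of the 77 core genes the 95% confidence interval of the log2 change lay within 1.5-fold in either direction. The exceptions were Rpl10a (-1.14 to 0.33) and Rps29 (-0.73 to 0.15). The highest upper bound was 0.57 (Rpl37a). The median interval of the core reached 0.26 to either side of the estimate. Scaling by total, by median of ratios or by upper quartile placed the core median at 0.11, 0.13 and 0.16, with all-gene medians of -0.02, -0.00 and 0.03, and quantile normalization at 0.07. These scalings also moved the balance of calls over all genes, from 41.2% upward as deposited to 49.6% with median-of-ratios and 53.8% with upper-quartile scaling and 50.4% after quantile normalization.

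Rps4l (gene 66184) lies on chromosome 6 from 148354656 to 148355596 in GRCm38.p6. WT replicates 1 to 3 held 0.740, 1.25 and 1.31 FPKM of it, KO replicate 2 held 11.35 FPKM and KO replicate 3 held 7.10 FPKM. Both KO libraries were far above every WT library, and the WT libraries were near the filter of 1 FPKM. The mean was 1.10 ± 0.313 FPKM in WT (SD, n = 3) against 9.22 ± 3.01 FPKM in KO (SD, n = 2). The log2 change was 2.26 ± 0.21 SE, with a 95% interval of 1.77 to 2.76 (limma adjusted p = 0.000628), which understates the change of so low a gene. It passed under each of 17 alternative fits, with log2 changes of 1.96 to 2.96 and adjusted p of 0.000185 to 0.00385. Rps4x, the X-linked parent and a core protein of the small subunit, had 1649, 1560 and 1608 FPKM in WT and 1952 and 1715 FPKM in KO (0.19 ± 0.10, adjusted p = 0.230). Rps4l thus stood at 0.0688% ± 0.0207 (SD, n = 3) of the sum of both genes in WT and at 0.495% ± 0.117 (SD, n = 2) in KO.

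The sequences of Rps4l and Rps4x are shown because Rps4l carries the called change and its reads must be told apart from an abundant parent. The stretch is bases 484 to 603 of the Rps4x coding sequence and the aligned bases of the Rps4l transcript, with the 35 of 120 bases that differ in capitals.
Rps4x: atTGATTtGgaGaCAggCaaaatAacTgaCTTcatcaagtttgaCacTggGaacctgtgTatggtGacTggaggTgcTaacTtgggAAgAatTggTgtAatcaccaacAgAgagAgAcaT
Rps4l: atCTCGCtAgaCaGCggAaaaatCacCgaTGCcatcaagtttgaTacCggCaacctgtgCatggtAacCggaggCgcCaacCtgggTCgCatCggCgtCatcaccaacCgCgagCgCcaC
It is the stretch of that length with the most differences. Over the whole alignment of 783 columns the pair had 626 identical bases (79.9%), and the longest run without a difference was 35 bases. The differences are scattered along the transcript. The handling of reads that match several genes was not given in the sources used here.

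Rpl37rt, a transcribed processed copy of the large-subunit gene Rpl37, is shown because its coding stretch can hardly be told from that of its parent. It had 290 of 291 coding bases in common with Rpl37 (99.7%), and the longest identical run was 248 bases. The rest of its transcript of 682 bases was not compared with Rpl37. Bases 130 to 249 of the Rpl37 coding sequence read as follows, ending in the base that differs, in capitals.
Rpl37: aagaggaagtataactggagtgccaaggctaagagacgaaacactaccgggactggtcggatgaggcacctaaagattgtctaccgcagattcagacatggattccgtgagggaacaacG
Rpl37rt: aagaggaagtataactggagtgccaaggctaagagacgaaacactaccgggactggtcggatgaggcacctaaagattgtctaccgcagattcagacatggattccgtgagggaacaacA
Rpl37rt was listed at 2.05, 5.32 and 2.68 FPKM in WT and 7.24 and 6.71 FPKM in KO. Both KO libraries were above every WT library, but the change did not pass (0.95 ± 0.28 SE, adjusted p = 0.0518). It passed with upper-quartile (1.01, 0.0418) and total scaling (0.97, 0.0398), with the replicate number as a block (0.72, 0.0312), with a term for sex (1.39, 0.0301) and without WT replicate 2 (1.25, 0.00320). With 1 differing base in the stretch compared, its level is uncertain against that of Rpl37. The level of Rpl37 was 479, 417 and 437 FPKM in WT and 518 and 424 FPKM in KO.

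**Figure D1:**
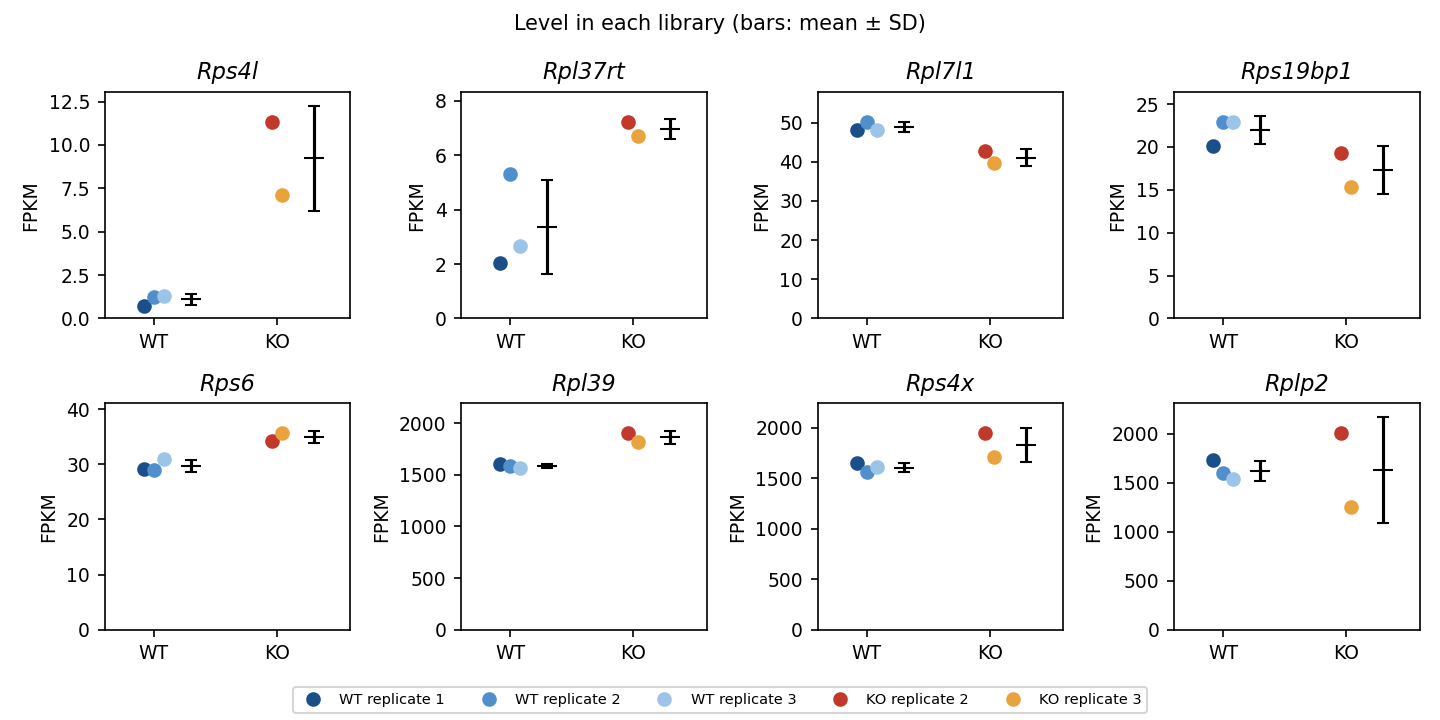
FPKM (vertical axes, from 0) of 8 members in each WT and KO library, 1 point per library, with black bars for the mean ± SD of each genotype. Rps4l and Rpl37rt are higher in both KO libraries than in all WT libraries, Rpl7l1 and Rps19bp1 are lower, and the KO libraries of Rplp2 lie on both sides of WT.

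Next to the threshold stood members of other roles. Rpl7l1, a paralog of Rpl7 known from ribosome assembly, had 48.2, 50.3 and 48.1 FPKM in WT and 42.7 and 39.6 FPKM in KO. Both KO libraries were below every WT library, and the log2 change was -0.24 ± 0.07 SE (limma adjusted p = 0.0508). The call was gained with no filter on low genes (0.0496), with a filter of 5 FPKM (0.0489) and without KO replicate 2 (-0.30, 0.0310). Rps6, the small-subunit protein phosphorylated by the S6 kinases, was listed at 29.2, 29.0 and 31.0 FPKM in WT and 34.2 and 35.7 FPKM in KO (0.23 ± 0.07 SE, adjusted p = 0.0661). Its KO libraries were both above WT, and it passed with upper-quartile scaling (0.31, 0.0246), median-of-ratios scaling (0.27, 0.0327) and quantile normalization (0.32, 0.0232). Rps6 has 10 near-identical copies elsewhere in the transcriptome, 1 of them exact, so its listed level is uncertain. Rps19bp1, which binds Rps19, had 20.1, 22.9 and 23.0 FPKM in WT and 19.3 and 15.4 FPKM in KO (-0.33 ± 0.11 SE, adjusted p = 0.0841), and passed without KO replicate 2 (-0.49, 0.0247).

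Core members were among the most abundant mRNAs of these cells. Their median level per library was 1142 to 1208 FPKM in WT and 1140 and 1325 FPKM in KO, where the median tested gene had 10.9 to 11.4 FPKM. Of the 100 genes with the highest level, 47 were members in each library except KO replicate 2, where 52 were. The order was led by Rplp1, a protein of the stalk that recruits translation factors, with 3065, 2942 and 2837 FPKM in WT and 3485 and 2517 FPKM in KO. Rpl41, the smallest ribosomal protein, had 2984, 2724 and 2718 FPKM in WT and 3545 and 2591 FPKM in KO. In both genes 1 KO library was above and the other below all WT libraries, and the log2 changes were 0.01 ± 0.15 and 0.11 ± 0.15 (SE; adjusted p = 0.979 and 0.650). The ranges of these 2 leading genes overlapped.

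The next places were held by Rps12 (2122 to 2328 FPKM in WT), Rps9 (2017 to 2269) and Rpl32 (1812 to 1927). Rps12 had 2588 and 1880 FPKM in KO, Rps9 2449 and 2030 FPKM, and Rpl32 2130 and 1882 FPKM. Rps12 lay on both sides of the WT libraries. Rps18 and Rps3a1, of the small subunit, had 1724 to 1837 and 1728 to 1843 FPKM in WT and could not be ordered. In KO, Rps18 had 2194 and 1883 FPKM, both above WT, and Rps3a1 2288 and 1718 FPKM. None of these 5 passed the test, with log2 changes between 0.00 (Rps12) and 0.20 (Rps18) and adjusted p of 0.223 to 0.998. Rps18 passed after quantile normalization (0.23, 0.0368) and, like Rps3a1, without KO replicate 3 (0.31 and 0.37).

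Most of the family lay within a narrow band below these genes, and a few members lay far under it. Of the 77 core genes, 67 had a mean over 500 FPKM, and the median of the means was 1203 FPKM. At the lower end, 8 core genes had means of 129 FPKM or less: Rps15a, Rpl22, Rpl15, Rps29, Rpl27a, Rps6, Rpl5 and Rpl10a. The next one up was Rpl21, at 277 FPKM. Rpl5, which binds the 5S ribosomal RNA and Mdm2, was listed at 13.7, 11.6 and 11.2 FPKM in WT and 11.6 and 10.2 FPKM in KO. Rpl10a, of the large subunit, was listed at 5.70, 14.3 and 8.83 FPKM in WT and 7.60 and 5.70 FPKM in KO, the lowest of the core. Each of the 8 was listed low in every library of both genotypes.

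Copies of these genes elsewhere in the transcriptome were counted beside the levels. A copy was counted where at least 90% of the coding sequence matched another gene's transcript at 95% identity or more in the reference transcripts. In all, 78 of the 87 members had such a copy, with 565 copies in total, of which 12 have a row in the table. An exact copy of the coding sequence was found for 5 of the 8 core genes listed low and for 14 of the other 69. A near copy was found for all 8 and for 66 of the 69, and Rpl21 had the largest number, 56. Counting that splits or drops reads matching several places could change the level of any of these genes, and its part was not tested here.

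**Figure D2:**
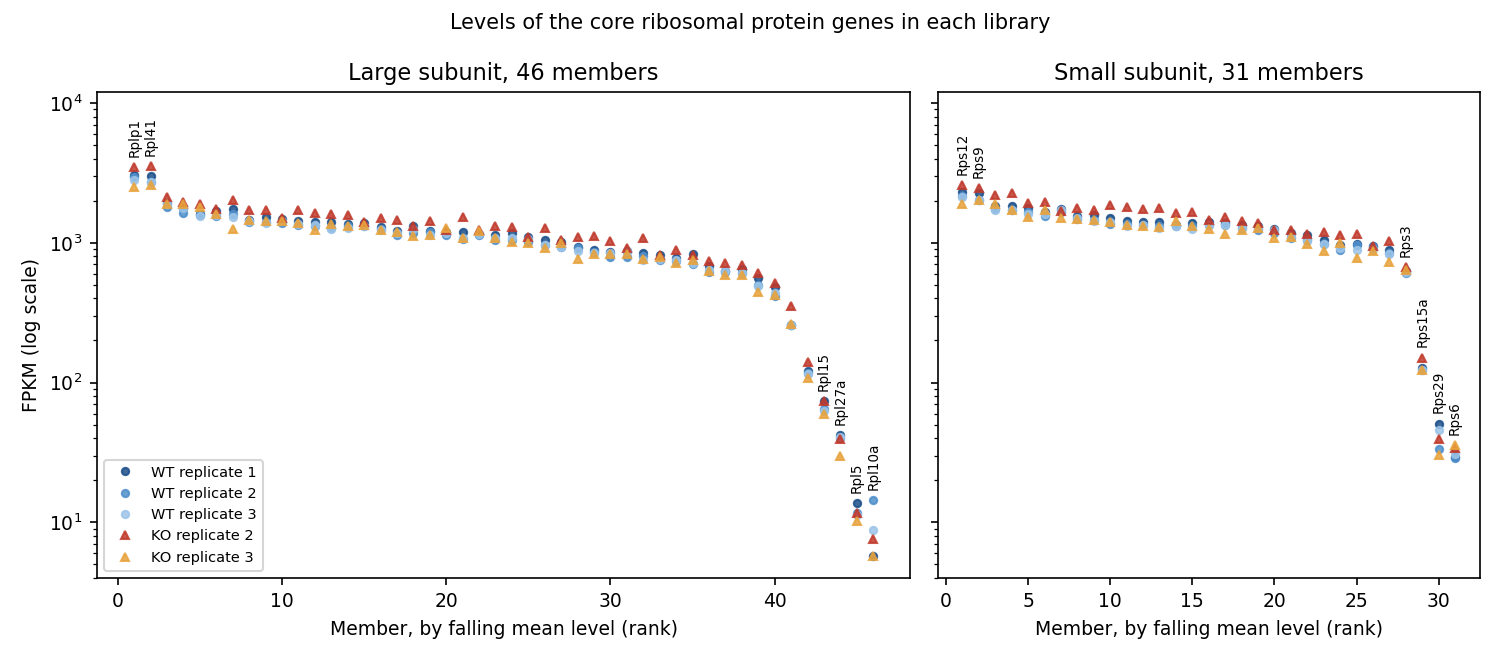
FPKM on a log axis of each core member, ordered by falling mean level within the large and small subunit, with 1 point per library (circles WT, triangles KO). Most members lie close together near 1203 FPKM, 8 fall to 129 FPKM or less, and the red triangles of KO replicate 2 sit above the other libraries for most members.

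The largest pattern in the family lay between the KO libraries and not between the genotypes. KO replicate 2 was higher than KO replicate 3 in 84 of 86 tested members (97.7%), against 45.0% of all tested genes. The median log2 difference between these 2 libraries was 0.28 for the members. Against the WT mean, KO replicate 2 was higher by a median of 0.24 and KO replicate 3 stood at -0.04. Among the 77 core genes, KO replicate 2 was above all WT libraries in 68, within their range in 8 and below them in 1. KO replicate 3 was above all WT libraries in 11, within their range in 30 and below them in 36. The core genes that did not follow were Rps6 and Rpl12, with log2 differences of -0.06 and -0.04. These counts have 1 library on each side and carry no test. The core count was 75 as deposited, 75 by median of ratios, 74 by upper quartile, 67 by total and 53 after quantile normalization. In the same order, the shares of all tested genes were 45.0%, 49.5%, 42.7%, 30.9% and 46.5%. After quantile normalization the core median difference was 0.11 in place of 0.27.

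Rplp2, the partner of Rplp1 in the stalk, showed the widest such difference of the core. It had 1731, 1600 and 1537 FPKM in WT, 2012 FPKM in KO replicate 2 and 1250 FPKM in KO replicate 3, a difference of 0.69 on the log2 scale. Its mean was nearly the same in both genotypes, 1623 ± 98.9 FPKM (SD, n = 3) and 1631 ± 539 FPKM (SD, n = 2). Rps28 and Rpl35a followed with differences of 0.57 and 0.53. At the other end, Rpl4 (0.01), Rpl10 (0.04), Rpl39, Rpl19, Rpl11, Rpl6 and Rps3 (each 0.07) were close to equal in both KO libraries.

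**Figure D3:**
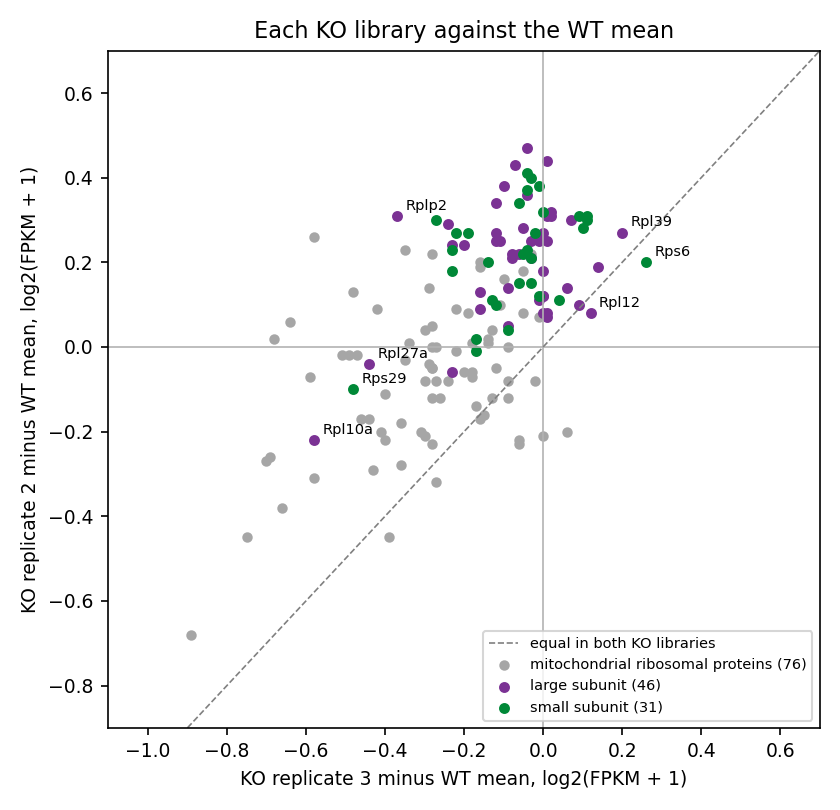
Log2(FPKM + 1) of KO replicate 2 (vertical) and KO replicate 3 (horizontal) minus the WT mean, 1 point per gene, for the core members of both subunits and, in grey, the mitochondrial ribosomal proteins. Of the core members, 75 of 77 lie above the dashed line of equal values, and their centre is near 0 for KO replicate 3 and near 0.23 for KO replicate 2.

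The calls followed these libraries. Without KO replicate 3, 24 of 86 members rose and none fell, where 6.09% of all genes rose and 9.92% fell. They included Rpl21 (0.44 ± 0.06 SE), Rpl37a (0.47 ± 0.08), Rpl36a (0.43 ± 0.08), Rps26 (0.41 ± 0.08) and Rps24 (0.40 ± 0.07), with limma adjusted p between 0.00872 and 0.0290. Without KO replicate 2, 1 member rose and 5 of 85 fell, where 8.72% of all genes rose and 15.0% fell. The 5 were Rplp2 (-0.37), Rpl36al (-0.33), Rpl27a (-0.44), Rpl7l1 (-0.30) and Rps19bp1 (-0.49). Rpl36al, the autosomal paralog of Rpl36a, was called in opposite directions: 0.24 (adjusted p = 0.0481) without KO replicate 3 and -0.33 (0.0150) without KO replicate 2. In these fits the lone KO library is assumed to vary like the WT group.

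The summed level of the family also differed between the KO libraries. Summed over the 87 members, FPKM were 91461, 85879 and 86196 in WT and 103284 and 84724 in KO replicates 2 and 3. KO replicate 2 was above and KO replicate 3 below all WT libraries. As a share of all FPKM the sums were 15.1%, 14.6% and 14.7% in WT and 17.1% and 15.1% in KO. The share in KO replicate 3 was thus within the WT range, at its upper end. The mean share was 14.8% ± 0.268 (SD, n = 3) and 16.1% ± 1.41 (SD, n = 2), and the difference was within the spread of the KO libraries. The smallest two-sided p of an exact permutation of 3 against 2 libraries is 0.2, and none was run. The ratio of large- to small-subunit FPKM was 1.27, 1.27 and 1.28 in WT and 1.27 and 1.30 in KO, nearly the same in all libraries.

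Within the family, the difference between the KO libraries was larger for genes with short coding sequences. Across the 77 core genes it correlated with log2 coding length at r = -0.50 (Spearman's rho -0.54). Core genes under 400 nucleotides had a median difference of 0.40 (25 genes), those of 400 to 600 had 0.25 (30 genes) and those of 600 or more 0.18 (22 genes). The other tested genes had a similar slope at lower values, with medians of 0.23 (570 genes), 0.13 (867 genes) and -0.06 (9189 genes), and r = -0.41 (rho -0.43) over 10626 genes. The correlation of the log2 change between genotypes with coding length was -0.06 for the core. These correlations are across genes of the same libraries and are descriptions, since genes are not independent replicates. In each range of coding length the core median was above that of the other genes. By transcript length the correlation was weaker for the core (r = -0.23, rho -0.29) than by coding length, and it was -0.39 (rho -0.41) for the other genes. Core genes with transcripts of 500 to 700 nucleotides had a median of 0.30 against 0.32 for other genes, and those of 700 to 1000 had 0.25 against 0.22. In the outer ranges the core was higher. Transcripts under 500 nucleotides had 0.46 (9 core genes) against 0.30, and those of 1000 or more had 0.24 (26 core genes) against -0.04. The part of fragment length or RNA quality in this difference was not tested.

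**Figure D4:**
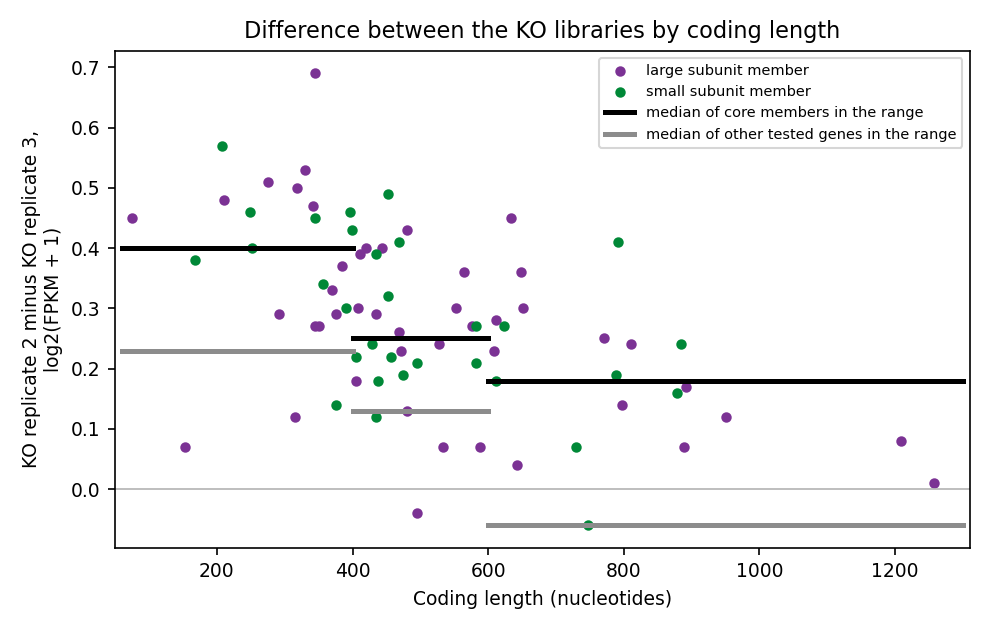
Log2(FPKM + 1) of KO replicate 2 minus KO replicate 3 (vertical) against coding length in nucleotides (horizontal) for the 77 core members, with horizontal lines for the medians of 3 length ranges (black for core members, grey for other tested genes, whose last range extends beyond the axis). Core medians fall from 0.40 to 0.18 and those of other genes from 0.23 to -0.06.

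Members with both KO libraries above every WT library numbered 13 of 86 (15.1%), beside 20.4% of all tested genes. Those with both below numbered 3 (3.49%), beside 30.8%. The core genes above WT included Rps18, Rpl10, Rps4x, Rpl39, Rpl4, Rps7, Rpl21 and Rps6, and the relatives Rps4l and Rpl37rt were above WT as well. Rps7, which also binds Mdm2, had 956, 893 and 914 FPKM in WT and 1145 and 993 FPKM in KO (0.21 ± 0.10 SE, limma adjusted p = 0.172). None of the core genes above WT passed. The core gene with both KO libraries below WT was Rpl27a, at 42.1, 40.1 and 40.4 FPKM in WT and 39.7 and 29.8 FPKM in KO (-0.24, adjusted p = 0.196).

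X-linked members were followed because sex differed between the libraries. By Xist, WT replicates 2 and 3 are female (14.4 and 15.3 FPKM), and WT replicate 1 and both KO libraries are male (0 to 0.02 FPKM). Rpl10, whose protein sits near the catalytic centre, had 1763, 1641 and 1769 FPKM in WT and 1964 and 1904 FPKM in KO (0.17 ± 0.09 SE, limma adjusted p = 0.258). Rpl39, a protein of the exit tunnel, had 1600, 1583 and 1563 FPKM in WT and 1907 and 1816 FPKM in KO (0.23 ± 0.09, adjusted p = 0.111). Rpl36a had 841, 805 and 752 FPKM in WT and 1073 and 759 FPKM in KO (0.18 ± 0.15, adjusted p = 0.446). Of the 4 X-linked core genes, Rpl10, Rpl39 and Rps4x were thus higher in both KO libraries than in the male and the female WT libraries, and Rpl36a was not. Rpl39 passed with upper-quartile (0.32, 0.0358) and total scaling (0.26, 0.0394). WT replicate 1, the male one, was the highest WT library in 73 of 77 core genes (94.8%), against 35.4% of all tested genes. The excess was small, with a core median of 0.05 over the WT mean on the log2 scale. This library also had the highest FPKM total of WT (604368, against 586808 and 585878). The parts of sex and of library scale in this excess were not tested. With a term for sex, which sets the KO libraries against WT replicate 1 alone, the core median was 0.02 in place of 0.08.

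The paralogs were compared with their parents as a share of the summed FPKM of each pair. Rpl22l1 was listed above Rpl22, at 68.9% ± 1.12 (SD, n = 3) of the pair in WT and 70.7% ± 0.20 (SD, n = 2) in KO. Rpl22 is among the core genes listed low above, so the size of this share is uncertain. The level of Rpl22l1 was 258, 256 and 269 FPKM in WT and 336 and 263 FPKM in KO. Rpl22 had 114 to 121 FPKM in WT and 140 and 108 FPKM in KO. Both shares in KO, 70.5% and 70.8%, were above those of all WT libraries, 68.0%, 68.7% and 70.2%, by less than the range of the WT group. Rps27l, a p53 target, was 16.2%, 16.9% and 17.1% of the pair with Rps27 in WT and 14.0% and 15.4% in KO. Rpl36al was 37.7%, 38.7% and 40.4% of the pair with Rpl36a in WT and 35.9% and 34.8% in KO. Rpl7l1 was 3.18%, 3.43% and 3.24% of the pair with Rpl7 in WT and 2.43% and 2.66% in KO.

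In these last 3 pairs, both KO libraries were below all WT libraries, and none of the shares was tested. For levels of single genes, the same was seen in 30.8% of all tested genes, and no such figure was computed for pairs. Rpl36a is X-linked. WT replicate 1, male like both KO libraries, had the lowest WT share of Rpl36al in its pair (37.7%). The part of sex in this share was not tested. The level of Rps27l itself was 274, 274 and 275 FPKM in WT and 281 and 238 FPKM in KO (-0.08, adjusted p = 0.548). That of Rpl36al was 508, 508 and 510 FPKM in WT and 602 and 405 FPKM in KO (-0.04, adjusted p = 0.875), so its KO libraries lay on both sides of a tight WT group. The testis form Rpl39l was near the floor of the table, at 0.610, 0.800 and 1.35 FPKM in WT and 1.67 and 0.360 FPKM in KO (0.01, adjusted p = 0.989). Rpl32l, a processed copy with 96.0% of aligned bases shared with Rpl32, was listed at 15.5 to 17.1 FPKM in WT and 23.0 and 15.0 FPKM in KO (0.18, adjusted p = 0.485), and rose without KO replicate 3 (0.47, 0.0241).

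Of the ribosomal genes outside the symbol rule, neither Fau nor Rack1 (in the table as Gnb2l1) passed. Fau, whose product carries the small-subunit protein eS30, had 1594, 1406 and 1423 FPKM in WT and 1609 and 1277 FPKM in KO (-0.04, adjusted p = 0.864). Of 18 other genes with TOP mRNAs, 1 was called (5.56%, beside 22.1% of all tested genes). None rose, and Eif3l, a subunit of initiation factor 3, fell by 0.29 on the log2 scale (SE 0.07, limma adjusted p = 0.0234). The list median was 0.04. KO replicate 2 was above KO replicate 3 in 11 of these 18 (61.1%), beside 45.0% of all tested genes. The call of Eif3l was lost with a term for sex (adjusted p = 0.0832), without any 1 of the WT libraries (0.0760 to 0.0819), with the replicate number as a block (0.121) and with upper-quartile or quantile scaling (0.0707 and 0.0814).

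The mitochondrial ribosomal proteins, which build the separate ribosome of that organelle, were the closest family by function. Of 76 tested, none rose and 9 fell (11.8%, beside 13.0% of all tested genes), with a median log2 change of -0.16. Mrpl52 had 78.9, 68.3 and 77.9 FPKM in WT and 46.4 and 39.9 FPKM in KO (-0.79 ± 0.10 SE, limma adjusted p = 0.00183). Mrpl28 fell by 0.60 (SE 0.10, adjusted p = 0.00570), Mrpl54 by 0.52 (SE 0.11, 0.0148) and Mrps15 by 0.48 (SE 0.12, 0.0315). Both KO libraries were below all WT libraries in 27 of the 76 (35.5%) and above in none, beside 30.8% and 20.4% of all tested genes. KO replicate 2 was above KO replicate 3 in 66 of the 76 (86.8%), with a median difference of 0.21. The mitochondrial list held 25 calls without KO replicate 2 and 3 without KO replicate 3. Mrpl54 lost its call without KO replicate 3 (0.0590), and that of Mrps15 was lost with a term for sex (0.134), under several scalings and without any 1 of WT replicates 1 to 3 or KO replicate 3 (0.0584 to 0.0885). The difference between the cytosolic and the mitochondrial family was not tested.

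Translation factors and regulators were read against the 22.1% of all tested genes that were called. Of 37 initiation factor genes 1 rose and 3 fell (10.8%, median -0.12). Eif3l, given above with the TOP genes, is 1 of these 3. Eif4a2, a helicase, rose by 0.41 (SE 0.09, limma adjusted p = 0.0153), and Eif2b4, of the exchange factor eIF2B, fell by 0.43 (SE 0.11, 0.0259). Eif3j1 fell by 3.28 (SE 0.87, 0.0358), while its level was 23.7 FPKM in WT replicates 1 and 2 and 1.85 FPKM in WT replicate 3. Its call was lost without any 1 of the other 4 libraries (0.0750 to 0.146). Eif3j2, of the same list, had 14.5, 15.5 and 36.1 FPKM in WT and 39.6 and 39.5 FPKM in KO. Its change was not called (0.94, SE 0.35, adjusted p = 0.0998). Eif3j2 was thus high in WT replicate 3 and both KO libraries, where Eif3j1 was low. The summed level of both genes was not tested, so a fall of the pair is not shown. Eif4a2 was not called with a term for sex (0.0817) or without WT replicate 2 (0.0593), nor was Eif2b4 with a term for sex (0.106) or without WT replicate 1 or 3 or KO replicate 3 (0.0722 to 0.109). Of 13 elongation and termination factors, Eef2k, the kinase that inactivates elongation factor 2, rose by 0.82 (SE 0.10, adjusted p = 0.00183), with 20.6 ± 1.67 FPKM in WT (SD, n = 3) and 37.2 ± 4.36 FPKM in KO (SD, n = 2). None of the 13 fell, so 1 was called (7.69%), and their median was 0.04.

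Of 18 S6 kinases and regulators of TOP mRNAs, 1 rose and 3 fell (22.2%, median -0.01), about the share of all genes. Rps6ka4, a nuclear kinase of the RSK-like family, had 24.7, 24.1 and 24.0 FPKM in WT and 16.1 and 15.9 FPKM in KO (-0.57 ± 0.07 SE, limma adjusted p = 0.00172). Eif4ebp1, the mTOR-controlled repressor of cap binding, had 59.1, 52.0 and 56.9 FPKM in WT and 41.8 and 38.0 FPKM in KO (-0.48 ± 0.09, adjusted p = 0.00770). Larp1, which binds the TOP motif, fell by 0.28 (adjusted p = 0.0307), with 26.6 ± 0.576 FPKM in WT (SD, n = 3) and 21.8 ± 0.438 FPKM in KO (SD, n = 2). Rps6ka5 rose by 0.41 (0.0381). Larp1 and Rps6ka5 were no longer called with a term for sex (0.221 and 0.170) or without any 1 of WT replicates 1 to 3 or KO replicate 3 (0.0702 to 0.118 and 0.0819 to 0.159). Larp1 also lost its call under all 4 scalings (0.0586 to 0.102), with no mean-variance trend (0.0524) and with the replicate block (0.0951), and Rps6ka5 with total scaling (0.0584), no filter (0.0692) and the block (0.0711). Of 52 ribosome biogenesis genes 2 rose and none fell (3.85% called, beside 22.1% of all tested genes), with a median of -0.08. Those that rose were Polr1e of RNA polymerase I (0.37, adjusted p = 0.0215) and Sbds of subunit joining (0.24, 0.0428). Neither was called with a term for sex (0.109 and 0.249) or without any 1 of the WT libraries (0.0646 to 0.145), and Polr1e also failed without KO replicate 2 (0.0644) and Sbds without KO replicate 3 (0.0904).

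**Figure D5:**
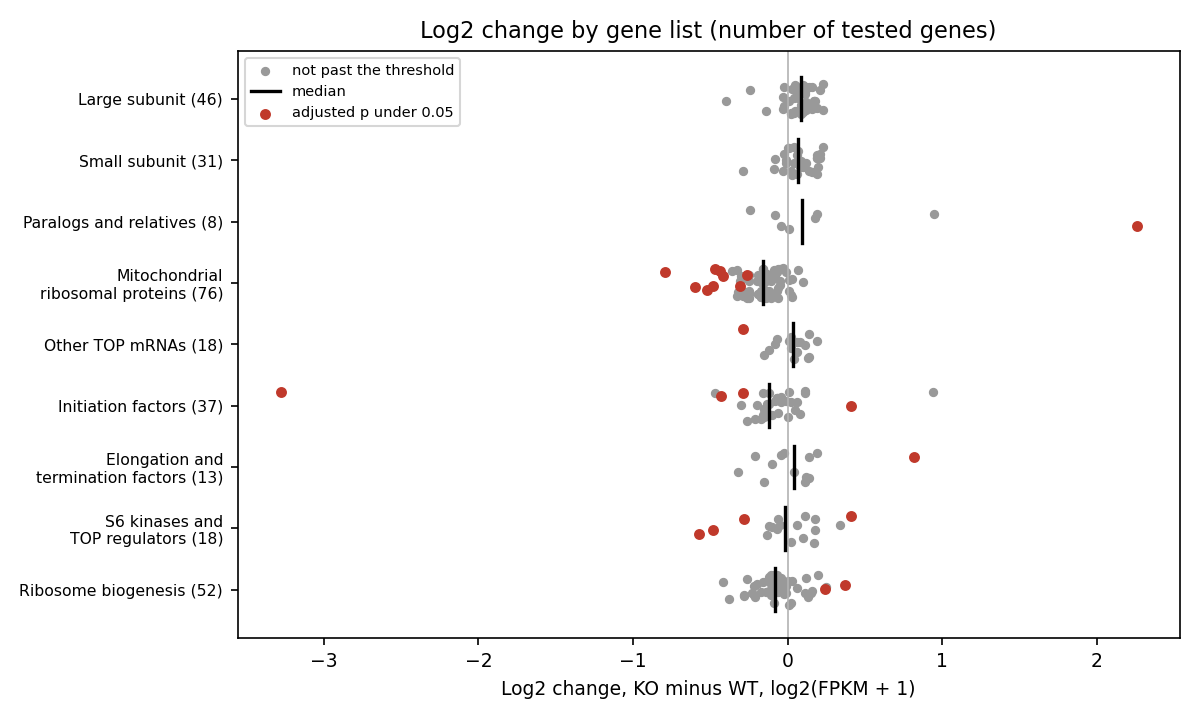
Log2 change (KO minus WT, horizontal axis) of each tested gene by list, with black bars for the list medians and red points for an adjusted p under 0.05; vertical scatter within a list has no meaning. The core members lie between -0.40 and 0.23 with no red point, Rps4l is the red point at 2.26, and 9 mitochondrial ribosomal protein genes are red on the lower side.

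Marker genes of several cell types differed in level between the genotypes. The counts stand beside 9.08% of all tested genes that rose and 13.0% that fell. Of 12 mast cell markers 9 rose, and their summed level was 12151 to 13937 FPKM in WT and 28579 to 32742 FPKM in KO. Of 10 markers of monocytes and macrophages 8 fell (6984 to 8812 and 2769 to 3054 FPKM), and of 10 neutrophil markers 9 fell (21993 to 32567 and 12607 to 16337 FPKM). Of 5 tested erythroid markers 2 fell (72.2 to 78.0 and 53.0 to 58.6 FPKM). The T and NK cell markers summed to 54.9 to 69.0 and 37.3 to 40.5 FPKM, and the 1 tested fell. The B cell markers Ms4a1 and Pax5 and the T cell marker Cd3e have no row in the table. The part of this shift in the values above was not tested. Dnmt3a itself was 6.68, 9.99 and 9.04 FPKM in WT and 2.58 and 3.42 FPKM in KO (-1.25 ± 0.17 SE, limma adjusted p = 0.00279).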

How the data were processed

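The samples are messenger RNA of cultured mouse bone marrow cells, 3 WT and 3 Dnmt3a knockout. The comparison used 3 WT and 2 knockout libraries, as no FPKM of KO replicate 1 were among the values used here. The deposited table holds FPKM per gene and library, per the file headers. Tools listed in the submitters' processing notes are edgeR, HISAT and StringTie 1.2.1, and the build is mm10; their roles are not stated there. The authors also deposited an adjusted p-value of a second test, whose input was not stated in the sources used here, and it is quoted only as a count. FPKM keep no read totals, and low values did not resolve into whole reads, so the depth and counting error of each library are unknown. FPKM summed to 560387 to 604368 per library.

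Genes with at least 1 FPKM in 2 libraries (11365 of 15139) were tested with limma 3.58.1 in R 4.3.3 on log2(FPKM + 1). The model had genotype alone, a mean-variance trend and 3 residual degrees of freedom. The Benjamini-Hochberg adjustment ran over all of them, calls needed an adjusted p under 0.05, and the procedure was tested on simulated data. Fold changes are KO minus WT on the log2(FPKM + 1) scale, which understates those of low genes. Near-identical copies were counted with BLAST+ 2.17.0 against reference transcripts, and pairs were aligned with Biopython 1.88. Promoters are RefSeq's for GRCm38.p6.

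The members and gene lists were chosen with earlier results of these data known. The text names every member past the threshold, the 8 with the highest level, the paralogs, the X-linked core genes, the member not tested, those nearest the threshold and, in each related list, the 4 called genes with the largest change. Other members were named after their values were seen. Alternatives were pseudocounts of 0.1 and 0.5, other filters, 4 scalings, no trend, robust variances, sex, a replicate block and leaving out each library. Some genes are not reported here.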

Additional observations from a re-analysis of the deposited data

How the results depend on the processing

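In all, 64 results had 947 alternative values. Of these, 779 kept their side of the threshold or stayed close in size, 66 lost a call, 22 gained one and 79 moved. Close in size meant within 1.5-fold for counts. For medians, sums and shares it meant within the pooled SD between libraries of a genotype, which is wide here. Core medians of 0.02 and 0.16 beside 0.08, and 53 core genes beside 75 between the KO libraries, were thus counted as kept. Uncalled genes that stayed uncalled were counted as kept even where their sign changed. Only 1 value was called with the opposite sign. The last was Rpl36al (-0.04 with all libraries), which ranged from -0.33 without KO replicate 2 to 0.24 without KO replicate 3. Over all genes 1312 were called with sex as a covariate, and 1623 to 2659 when 1 library was left out, with the lowest count without WT replicate 2.

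Members called higher numbered 2 with median-of-ratios scaling, 4 with upper-quartile scaling, 3 with total scaling, 3 after quantile normalization and 2 with sex as a covariate. Members called lower numbered 1 with no filter and 1 with a filter of 5 FPKM. Core members called numbered 1, 2, 1 and 2 under those 4 scalings. The mitochondrial list held 4 calls with no filter, with no trend, with sex, and with median-of-ratios, upper-quartile or quantile scaling. The other TOP genes held 0 with upper-quartile scaling or sex, the initiation factors 1 with sex, and the elongation factors 2 after quantile normalization. The S6 kinase list held 2 with total scaling or sex. Ribosome biogenesis held 1 with total scaling or no trend, and 0 with sex.

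With 1 library left out, members called higher ranged from 1 to 24, members called lower from 0 to 5 and core members called from 0 to 20. The list counts ranged from 3 to 25 (mitochondrial), 0 to 4 (other TOP), 1 to 7 (initiation), 1 to 3 (elongation), 2 to 4 (S6 kinases) and 0 to 9 (biogenesis). The median log2 change ranged from -0.04 to 0.24 for members, -0.04 to 0.23 for the core, -0.03 to 0.24 for the large and -0.04 to 0.23 for the small subunit. The summed FPKM difference ranged from -3.55% to 17.6% and the share difference from 1.97% to 15.4%. The differences in paralog share, in percentage points, ranged from -2.78 to -1.32 for Rps27l, 0.343 to 0.509 for Rps4l and -0.0726 to 0.207 for Rpl32l. KO replicates 2 and 3 set the ends of the member and core ranges.

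Replicates 2 and 3 occur in both groups, but the numbers share no stated source. Deviations of same-numbered libraries correlated at -0.029 and 0.099. With the replicate number as a block, 2 members were called higher and 1 lower, 1 core member, 5 mitochondrial, 0 other TOP and 0 biogenesis genes. Depth is unknown, so precision rests on the spread of 5 libraries.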
